A study of Mus musculus with 6 samples.

Results

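The contactins and the contactin-associated proteins are neuronal cell-adhesion molecules, and 9 of their genes (Cntn1 to Cntn6, Cntnap1, Cntnap2 and Cntnap4) are described here across 6 Affymetrix arrays of newborn mouse cortex. Every probe set with one of these 9 symbols as its only gene name was taken, which gave 18 of the 45037 probe sets tested. The family was selected on results of the same contrast, wildtype against transgenic, so the members' differences are a description and carry no test of their own. One group of 3 arrays held wildtype C57BL/6 tissue, and the other held tissue of littermates carrying the D6/Zbtb20S transgene on the same background. All mice were at postnatal day 1, the tissue was subiculum plus retrosplenial cortex, and a pool of RNA from 7 animals went on each array. The D6 element is known as a regulatory sequence active in developing cortex and hippocampus, and Zbtb20 is a zinc finger repressor of hippocampal pyramidal neurons. The labels call the transgenic tissue CA1-transformed, after the hippocampal field CA1.

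Contactins are chains of immunoglobulin and fibronectin domains held to the outer membrane by a lipid (GPI) anchor. They bind one another, L1-type adhesion molecules, amyloid precursor family proteins and receptor tyrosine phosphatases, and they act in axon guidance, fasciculation and synapse formation. The contactin-associated proteins, or Casprs, are transmembrane relatives of neurexins that pair with contactins on axons, where they separate sodium from potassium channels around the nodes of myelinated fibres. Cntn4, Cntn5 and Cntn6 are best known from subsets of sensory and cortical neurons.

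Cntn4, Cntn5 and Cntn6 are the contactins whose signal was lower by more than 2-fold in transgenic tissue, and Cntn2 is the member with a higher probe set, so the 250 bases before their annotated starts are shown for reference. The sequences are those of RefSeq on GRCm38.p6, read 5′ to 3′ on the gene's strand and ending at the base before the start. The first listed start was taken where a gene had several. Capitals mark each CG dinucleotide, whose number differed among these windows. The windows are chr6:106118515-106118764 (plus strand) for Cntn4, chr9:10904776-10905025 (minus strand) for Cntn5, chr6:104492794-104493043 (plus strand) for Cntn6 and chr1:132542941-132543190 (minus strand) for Cntn2.
Cntn4: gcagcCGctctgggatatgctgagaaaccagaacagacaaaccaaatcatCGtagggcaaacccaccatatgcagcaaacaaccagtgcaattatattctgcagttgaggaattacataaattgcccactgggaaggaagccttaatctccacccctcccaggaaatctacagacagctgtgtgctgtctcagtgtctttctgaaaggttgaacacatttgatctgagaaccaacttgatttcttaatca
Cntn5: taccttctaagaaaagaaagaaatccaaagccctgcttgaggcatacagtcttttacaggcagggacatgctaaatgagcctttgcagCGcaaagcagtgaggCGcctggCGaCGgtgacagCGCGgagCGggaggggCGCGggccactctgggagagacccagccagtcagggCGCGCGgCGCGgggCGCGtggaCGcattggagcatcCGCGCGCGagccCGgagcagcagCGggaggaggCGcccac
Cntn6: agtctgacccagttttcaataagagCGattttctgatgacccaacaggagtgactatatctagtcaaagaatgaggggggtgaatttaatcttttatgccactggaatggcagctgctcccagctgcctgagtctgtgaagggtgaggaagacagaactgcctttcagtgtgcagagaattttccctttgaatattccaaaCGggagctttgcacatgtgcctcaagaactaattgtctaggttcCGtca
Cntn2: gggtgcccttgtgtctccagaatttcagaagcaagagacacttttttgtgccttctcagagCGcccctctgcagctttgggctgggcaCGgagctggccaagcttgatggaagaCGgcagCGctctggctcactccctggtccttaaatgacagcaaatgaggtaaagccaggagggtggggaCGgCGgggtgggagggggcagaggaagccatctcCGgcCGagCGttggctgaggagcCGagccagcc

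The 3 lower contactins did not share one kind of start region. The Cntn5 window was 64.8% G or C with 24 CG dinucleotides, while Cntn4 had 44.4% and 2, and Cntn6 had 45.2% and 3. Cntn2 lay between, at 61.2% and 10. Over 32851 windows of the same length, the median was 52.4% and 6 CG dinucleotides. The TATA box (TATAAA, gene strand) was found in none of the 4 windows and in 7.59% of all. The CCAAT box (CCAAT, both strands) occurred once, in Cntn5, and in 33.9% of all windows. The GC box (GGGCGG, both strands) was in none of the 4 and in 32.7% of all. Both Cntn4 and Cntn5 have a second listed start whose window overlaps the first. That of Cntn4 had 12 CG dinucleotides, and that of Cntn5 had 26 and 1 GC box. Sequence windows were matched for 7 of the 9 members.

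Zbtb20, the gene of the transgene, was read by 9 probe sets, of which 1 passed and 8 did not, with differences from -0.37 to 0.85 among the 8. The 1 that passed, 1422064_a_at, was at 6.44, 5.84 and 7.64 (log2 signal) on wildtype replicates 1, 2 and 3 and at 8.88, 9.10 and 8.94 on the transgenic arrays. Wildtype replicate 3 therefore stood above the other wildtype arrays on the transgene's own gene, and leaving it out kept the same 6 member probe sets past the threshold. It moved Cntnap2 on 1437782_at from -0.28 to -0.08, Cntn2 on 1435165_at from 0.17 to 0.07, Cntn3 on 1438628_x_at from 0.18 to 0.29 and Cntn1 on 1449563_at from 0.11 to 0.35, and turned Cntn2 on 1456962_at from 0.06 to -0.013. None of these 5 passed with all arrays. Array medians lay between 3.83 and 3.97. In actin, a control for RNA quality, the 3' probe set exceeded the 5' one by 0.53, 0.88 and 1.31 (log2) on wildtype replicates 1, 2 and 3, and by 0.80 to 0.91 on transgenic arrays. In Gapdh, another such control, the 3' minus 5' value was -0.33, -0.03 and 0.30 on wildtype replicates 1, 2 and 3. On transgenic replicates 1, 2 and 3 it was -0.002, -0.012 and -0.023. The 3 subiculum genes (Nts, Fn1 and Slc17a6) and the 3 retrosplenial genes (Tshz2, Nr4a2 and Cxcl14) used to check the tissue were above the array median on every wildtype array. All 6 were lower in transgenic tissue, with list medians of -1.41 and -3.34, and they were listed with that fall known.

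With limma's adjusted p held under 0.05, 6 of the 18 probe sets passed, 5 lower and 1 higher in transgenic tissue. Among all 45037 probe sets 5.52% passed, 2.11% lower and 3.40% higher. Nothing is read from that contrast of shares, because the family was picked with it known. The median difference was -0.19 (log2, transgenic minus wildtype) over the 18 and -0.02 over all probe sets. Probe sets lower by at least 2-fold numbered 4, all of different genes, and 0 were higher by that much. The 3 arrays of one genotype did not overlap those of the other on 7 lower and 3 higher member probe sets, beside 11.8% and 11.9% of all probe sets.

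**Figure D1:**
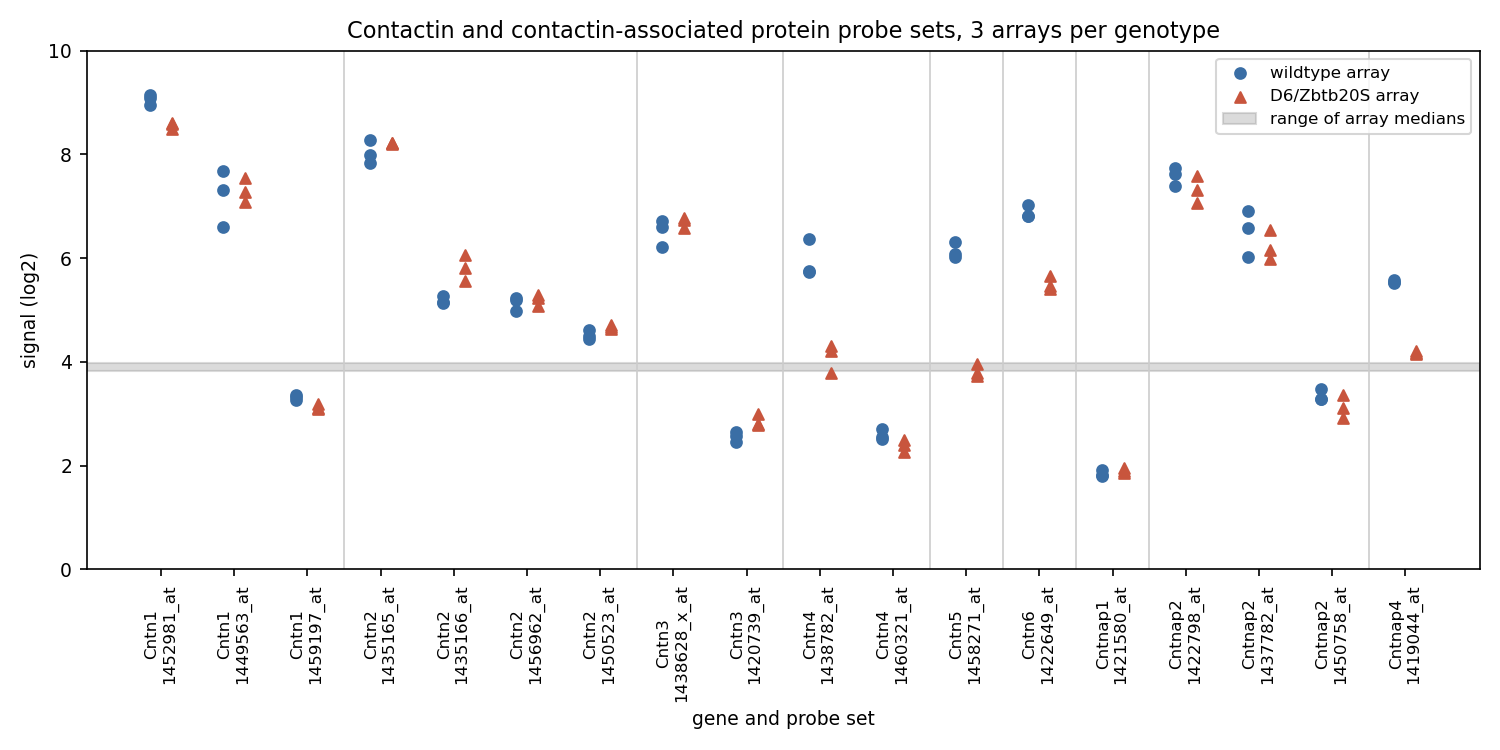
Log2 signal (vertical axis) of the 18 member probe sets (horizontal axis) on each of the 3 wildtype arrays (circles) and 3 D6/Zbtb20S arrays (triangles), with the range of the 6 array medians as a grey band. The triangles lie clearly under the circles for Cntn4 (1438782_at), Cntn5, Cntn6 and Cntnap4, while both groups lie under the band for 5 probe sets.

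Cntn5, a contactin of auditory and cortical neurons that binds amyloid precursor-like protein, had the lowest difference of the family. Its only probe set, 1458271_at, read 6.08, 6.32 and 6.03 on the wildtype arrays and 3.97, 3.73 and 3.79 on the transgenic ones. The groups were separated by a gap of 2.06 on the log2 scale. Means were 6.14 ± 0.15 (SD, n = 3) and 3.83 ± 0.12 (SD, n = 3), a 4.97-fold lower signal with a log2 difference of -2.31 ± 0.11 (SE). On 2 of the 3 transgenic arrays it lay under the array median, where the probe set summary compresses changes, and the fold is given with that limit. Of all probe sets it had the 26th lowest difference.

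Cntn4, which binds amyloid precursor protein and guides olfactory and visual axons, was read by 2 probe sets. On 1438782_at the wildtype arrays gave 5.74, 5.76 and 6.37 and the transgenic arrays 4.31, 3.79 and 4.21. All transgenic arrays were lower, by at least 1.44, and wildtype replicate 3 was the highest array. The difference was -1.85 ± 0.19 (SE), or 3.61-fold, and -1.65 without wildtype replicate 3. On 1 transgenic array it lay under the array median, so the limit given for Cntn5 holds here too. On 1460321_at the signal was under the array median on all 6 arrays, at 2.52, 2.70 and 2.56 in wildtype and 2.27, 2.49 and 2.39 in transgenic tissue. That probe set did not pass (-0.21 ± 0.09), so the fall of Cntn4 rests on 1438782_at.

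Cntn6, a contactin of deep-layer cortical neurons that signals with the L1-type molecule Chl1 through a receptor phosphatase, also fell. Its probe set 1422649_at read 6.82, 6.82 and 7.02 in wildtype and 5.66, 5.40 and 5.46 in transgenic tissue. The groups did not overlap, and every array stayed above its median. The signal was 2.60-fold lower, from 6.88 ± 0.11 (SD, n = 3) to 5.50 ± 0.13 (SD, n = 3), a difference of -1.38 ± 0.10 (SE). In bulk tissue, fewer cells of a type and less RNA per cell cannot be told apart, and this holds for each member.

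Cntnap4, a Caspr known from interneuron synapses, was the most uniform member. Probe set 1419044_at read 5.53, 5.57 and 5.55 on wildtype arrays and 4.21, 4.18 and 4.15 on transgenic arrays. The spread within a genotype was 0.02 and 0.03 (SD, n = 3 each), against a difference of -1.37 ± 0.07 (SE), or 2.58-fold. The fall in Cntnap4 was nearly the size of that in Cntn6. Beside it, 2 of 11 GABAergic interneuron genes were lower (adjusted p under 0.05) and 0 higher, with a list median of -0.14, and the summed linear signal of that list ran from 1178 to 1215 on wildtype and from 963 to 1025 on transgenic arrays. That sum weighs bright probe sets most, and Gad1 was the brightest, with means of 8.48 in wildtype and 7.88 in transgenic tissue. None of the 11 genes of the list was under the array median on all arrays. The largest differences in it were those of Gad1 (-0.60 ± 0.10, SE) and Nxph1 (-0.55 ± 0.13, SE), both smaller than that of Cntnap4, and their part in the result was not tested. With the adjustment over all probe sets 1 of 2 Gad1 and 0 of 3 Nxph1 probe sets passed.

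Cntn1, the contactin that joins Cntnap1 at the paranodes beside the nodes of Ranvier, gave different answers by probe set. On the brightest, 1452981_at, wildtype arrays read 8.96, 9.10 and 9.14 and transgenic arrays 8.60, 8.48 and 8.58. That is 1.42-fold lower in transgenic tissue (-0.51 ± 0.08), without overlap, but the probe set missed the threshold without wildtype replicate 2 (-0.49) or D6/Zbtb20S replicate 2 (-0.47). On 1449563_at the wildtype arrays spread from 6.61 through 7.31 to 7.68 around transgenic values of 7.09, 7.27 and 7.55. In wildtype this probe set was lowest on the array with the lowest actin 3'-to-5' excess (replicate 1). It was highest on the array with the highest (replicate 3). Among transgenic arrays it was highest on replicate 3, while the actin excess was highest on replicate 2 and the Gapdh value on replicate 1. The part of RNA quality was not tested. The difference of 0.11 on 1449563_at became -0.19 when wildtype replicate 1 was removed and -0.018 when D6/Zbtb20S replicate 3 was. The dim probe set 1459197_at differed by -0.18 ± 0.08 and did not pass. The mean of the 3 Cntn1 probe sets differed by -0.19, less than the brightest probe set alone.

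Cntn2, an early axonal contactin of commissural and corticofugal fibres that later joins Cntnap2 beside the nodes, was the only gene of the family with a higher probe set past the threshold. On 1435166_at wildtype arrays read 5.16, 5.14 and 5.27 and transgenic arrays 5.56, 5.81 and 6.06. All transgenic arrays were higher, and the difference was 0.62 ± 0.12 (SE), or 1.54-fold. It missed the threshold without wildtype replicate 1 (0.60), wildtype replicate 2 (0.60) or D6/Zbtb20S replicate 2 (0.62). The brightest Cntn2 probe set, 1435165_at, read 8.28, 7.99 and 7.83 in wildtype and 8.22, 8.22 and 8.19 in transgenic tissue, with overlapping groups. The remaining pair differed by 0.06 and 0.15, so 3 of 4 Cntn2 probe sets did not pass.

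Cntn3, a contactin of cortical and olfactory neurons, did not pass on either probe set. The brighter, 1438628_x_at, read 6.22, 6.60 and 6.72 in wildtype and 6.77, 6.74 and 6.58 in transgenic tissue (0.18 ± 0.13), and its name marks probes that can match other transcripts. The dimmer, 1420739_at, was under the array median throughout and higher on all transgenic arrays (0.31 ± 0.09), by a gap of 0.13.

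Cntnap2, the Caspr that gathers potassium channels beside the nodes and is studied for its link to language and epilepsy disorders, was measured by 3 probe sets. On 1422798_at wildtype arrays read 7.62, 7.40 and 7.73 and transgenic arrays 7.32, 7.07 and 7.58. The groups overlapped here and on both other probe sets. The differences were -0.26 ± 0.14, -0.28 ± 0.22 and -0.21 ± 0.12 (SE), all negative, and none passed. On 1437782_at wildtype replicates 1, 2 and 3 read 6.02, 6.58 and 6.92. They were again lowest and highest on the arrays lowest and highest in the actin 3'-to-5' excess. Transgenic replicates 1, 2 and 3 read 6.16, 5.99 and 6.53, lowest on replicate 2. That array had the highest actin excess among them, but not the highest Gapdh value. The part of RNA quality was not tested here either. Cntnap1, the paranodal Caspr of myelinated axons, was near the bottom of the scale on all arrays, at 1.80 to 1.92 in wildtype and 1.86 to 1.95 in transgenic tissue, and under the array median on each.

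**Figure D2:**
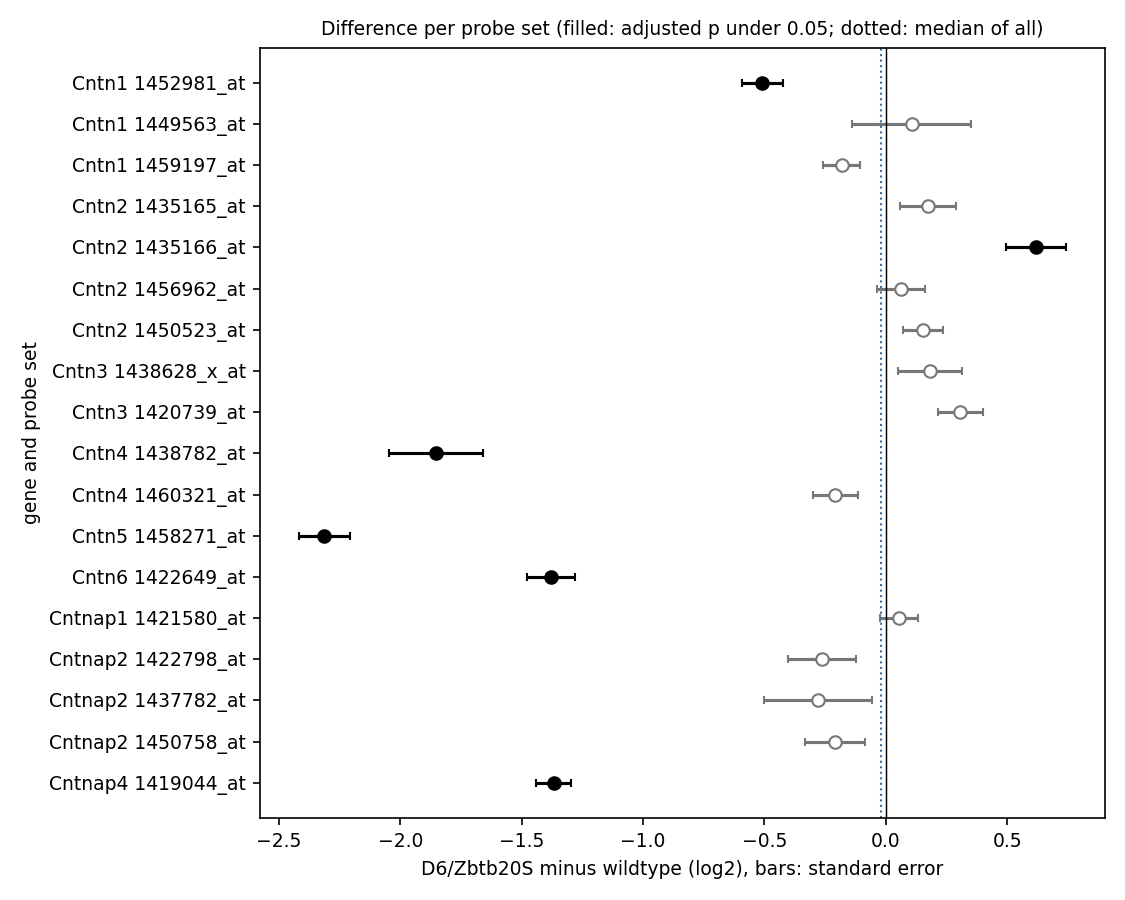
Log2 difference, D6/Zbtb20S minus wildtype, of each of the 18 probe sets (horizontal axis) with its standard error from the moderated fit. Filled points passed an adjusted p under 0.05, open points did not, and the dotted line is the median of all probe sets (-0.02). Cntn5 (-2.31), Cntn4 (-1.85), Cntn6 (-1.38) and Cntnap4 (-1.37) lie apart from the 12 open points, which run from -0.28 to 0.31.

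In an ordinary linear model, without limma's moderation, 3 of the 18 passed (Cntn5, Cntn6 and Cntnap4), and Cntn4 did not. Those 3 and Cntn4 passed with any single array left out.

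Of the 9 genes 4 lie on chromosome 6, and Cntn3, Chl1, Cntn6 and Cntn4 are 4 consecutive protein-coding genes in the GRCm38.p6 gene table. Differences varied along the row. Cntn6 and Cntn4, which neighbour each other, had the differences of -1.38 and -1.85 given above. The dimmer Cntn4 probe set, 1460321_at, was at -0.21 and did not pass. Cntn3 at the other end had 0.18 and 0.31, neither of which passed. Chl1, an L1 family gene, lies between Cntn3 and Cntn6. Its brightest probe set, 1435190_at, read 10.6, 10.7 and 10.8 in wildtype and 10.8, 10.8 and 10.6 in transgenic tissue, a difference of 0.03 ± 0.09 (SE), and it did not pass. Its second, 1417795_at, was higher in transgenic tissue (0.39 ± 0.09, limma adjusted p = 0.0385 over all probe sets), and its dim pair, 1447036_at and 1443713_at, differed by -0.26 and 0.51 without passing.

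**Figure D3:**
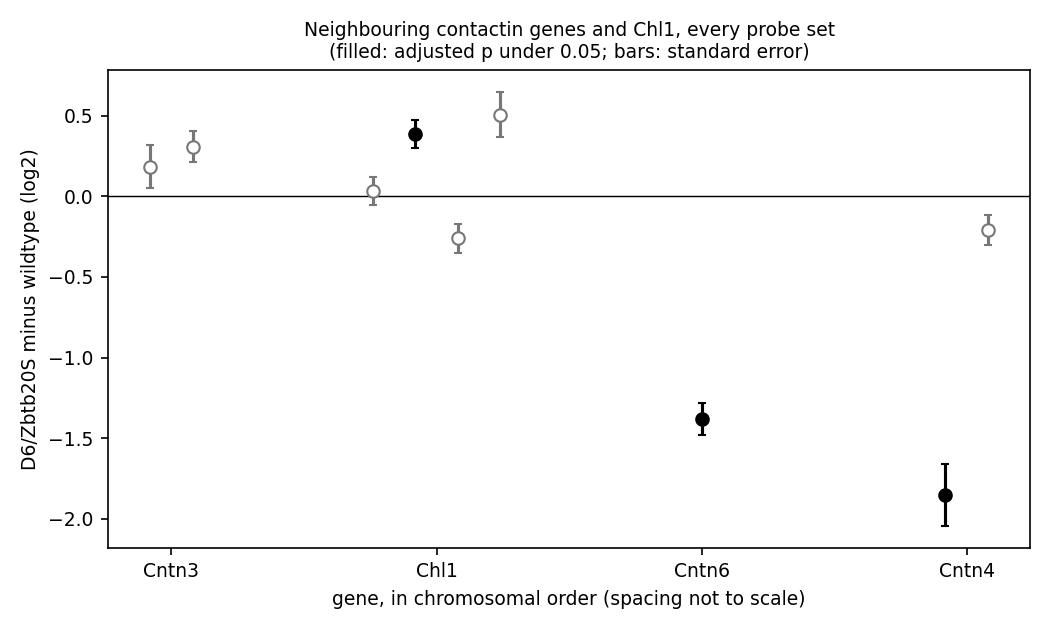
Log2 difference, D6/Zbtb20S minus wildtype (vertical axis), of every probe set of 4 consecutive genes of chromosome 6, in their order and not to scale, with standard errors and filled points for an adjusted p under 0.05. Cntn6 (-1.38) and the brighter Cntn4 probe set (-1.85) lie far under the points of Cntn3 and Chl1, which run from -0.26 to 0.51. The dimmer Cntn4 probe set (-0.21) lies within that range.

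The genes whose profile over the 6 arrays was nearest to that of Cntn5 (smallest root mean square difference after centring each gene) were Dio2 (0.13), Mef2c (0.14), Myo5b (0.14), Dok5 (0.14) and Tenm3 (0.15). These encode a deiodinase that activates thyroid hormone, a neuronal transcription factor, an unconventional myosin, a docking protein and a teneurin adhesion molecule. For Cntn6 they were Rasgrf2 (0.085), Tuba4a (0.088), Cntnap4 (0.094), Cav1 (0.12) and Flrt3 (0.12). Rasgrf2 is an exchange factor for Ras, Tuba4a a tubulin, Cav1 a caveolin and Flrt3 a membrane adhesion protein. Each value covers 6 arrays in 2 groups, so likeness here is mostly a like difference between genotypes.

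Caspr genes beyond the 9 were represented by Cntnap5a, and the other 3 on the list (Cntnap3, Cntnap5b and Cntnap5c) were not analysed here. Cntnap5a read 5.84, 5.78 and 6.55 on wildtype arrays and 5.14, 4.87 and 5.25 on transgenic arrays. All transgenic arrays were lower, and the signal fell 1.96-fold (-0.97 ± 0.19, SE; limma adjusted p = 0.0129 over all genes). With D6/Zbtb20S replicate 1 or 2 removed it no longer passed (limma adjusted p up to 0.0549). Wildtype replicate 3 was its highest array, as for Cntn4.

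Of 44 measured relatives and partners of the contactins (47 listed), 9 were lower and 3 higher in transgenic tissue, beside 3.64% of all 18193 genes lower and 4.06% higher. Here each gene is represented by its brightest probe set. Their median difference was -0.06, against -0.02 over all genes. Leaving out 1 array gave 6 to 14 genes in place of 12, with 7 without wildtype replicate 2, 6 without D6/Zbtb20S replicate 1 and 7 without D6/Zbtb20S replicate 2.

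Among the L1 family, which bind contactins in cis and trans, 1 of 4 genes fell. Nrcam, an adhesion molecule of nodes and growing axons, gave 8.09, 8.27 and 8.47 on wildtype arrays and 7.84, 7.51 and 7.94 on transgenic arrays (-0.51 ± 0.13, SE; limma adjusted p = 0.0464). It no longer passed when any of wildtype replicates 2 and 3 and D6/Zbtb20S replicates 1 and 2 was removed (limma adjusted p up to 0.139). Nor did it pass when its 4 probe sets were averaged (-0.44). These values are of 1430583_at, its brightest probe set. Over all probe sets another, 1434709_at, was the only 1 of the 4 to pass (-0.74 ± 0.13, SE, limma adjusted p = 0.0137). L1cam, Chl1 and Nfasc, the neurofascin gene that neighbours Cntn2, were at -0.03, 0.03 and 0.10 and did not pass.

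Of 14 ligands, receptors and signalling partners 1 fell and 1 rose, and they are 2 related receptor tyrosine phosphatases that bind contactins. Ptprz1, the partner of Cntn1 on glial and progenitor cells, read 10.1, 10.1 and 10.2 on wildtype arrays and 9.45, 9.46 and 9.31 on transgenic arrays. That is a fall of 1.63-fold (-0.70 ± 0.08, SE; limma adjusted p = 0.000527), and 2 of its 3 probe sets passed. Ptprg, which binds Cntn3, Cntn4, Cntn5 and Cntn6, read 6.76, 6.71 and 7.08 in wildtype and 7.84, 7.67 and 7.70 in transgenic tissue. It rose 1.85-fold (0.89 ± 0.11, SE; limma adjusted p = 0.000872), and 1 of its 4 probe sets passed, though all transgenic arrays were above all wildtype arrays on each of the 4. The receptor gene rose where the signals of Cntn4 (on 1438782_at), Cntn5 and Cntn6 were lower. Those of Cntn3 differed by 0.18 and 0.31 and did not pass. A relation between receptor and ligands was not tested. The other 12 genes of the list did not pass on their brightest probe sets, and the list median was 0.13. The dimmer of 2 Fyn probe sets, 1417558_at, was higher over all probe sets (0.44 ± 0.10, SE, limma adjusted p = 0.0367).

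Axonal domain and channel partners counted 4 lower and 1 higher of 14, with a list median of -0.22. The potassium channel gene Kcna1, gathered beside the nodes by Cntn2 and Cntnap2, read 5.34, 5.23 and 5.51 in wildtype and 4.68, 4.81 and 4.52 in transgenic tissue (-0.69 ± 0.10, SE; limma adjusted p = 0.00297). Lgi1, the secreted ligand of Adam22 and an epilepsy gene, fell by 0.60 on the log2 scale (limma adjusted p = 0.00435), and both genes passed with each array left out. The sodium channel gene Scn2a (-0.50 ± 0.12) and the spectrin gene Sptbn4 (-0.44 ± 0.09) fell too on their brightest probe sets. With the adjustment over all probe sets none of the 4 Scn2a probe sets passed, and 1427280_at was at 0.07. Removing any of the same 4 arrays as for Nrcam took Scn2a over the threshold (limma adjusted p up to 0.153), and its probe sets averaged -0.14. Sptbn4 depended on wildtype replicate 2 and on D6/Zbtb20S replicates 1 and 2 (limma adjusted p up to 0.0665 with one removed). Kcnab2, a potassium channel subunit named here after its value was seen, was higher (0.42 ± 0.09). Of 6 fits on 5 arrays it passed in 2, when wildtype replicate 3 or D6/Zbtb20S replicate 2 was the array removed (limma adjusted p up to 0.0845), and its probe sets averaged 0.26.

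Of 11 other immunoglobulin-type adhesion genes 2 fell and 1 rose, with a list median of -0.03. Dscam, a self-avoidance receptor, fell by 0.53 on the log2 scale (limma adjusted p = 0.00588), with its 5 probe sets averaging -0.26. Alcam, an axon fasciculation molecule, rose by 0.68 ± 0.12 (SE, limma adjusted p = 0.0095). All transgenic arrays were above all wildtype arrays on each of its 5 probe sets, and 4 of the 5 passed over all probe sets. Sdk2, a sidekick adhesion gene, was at -0.34 ± 0.09 (SE; limma adjusted p = 0.0392) and still passed with 5 arrays only where wildtype replicate 1 was removed (limma adjusted p up to 0.142). Its 2 probe sets averaged -0.19, and neither passed with the adjustment over all probe sets.

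**Figure D4:**
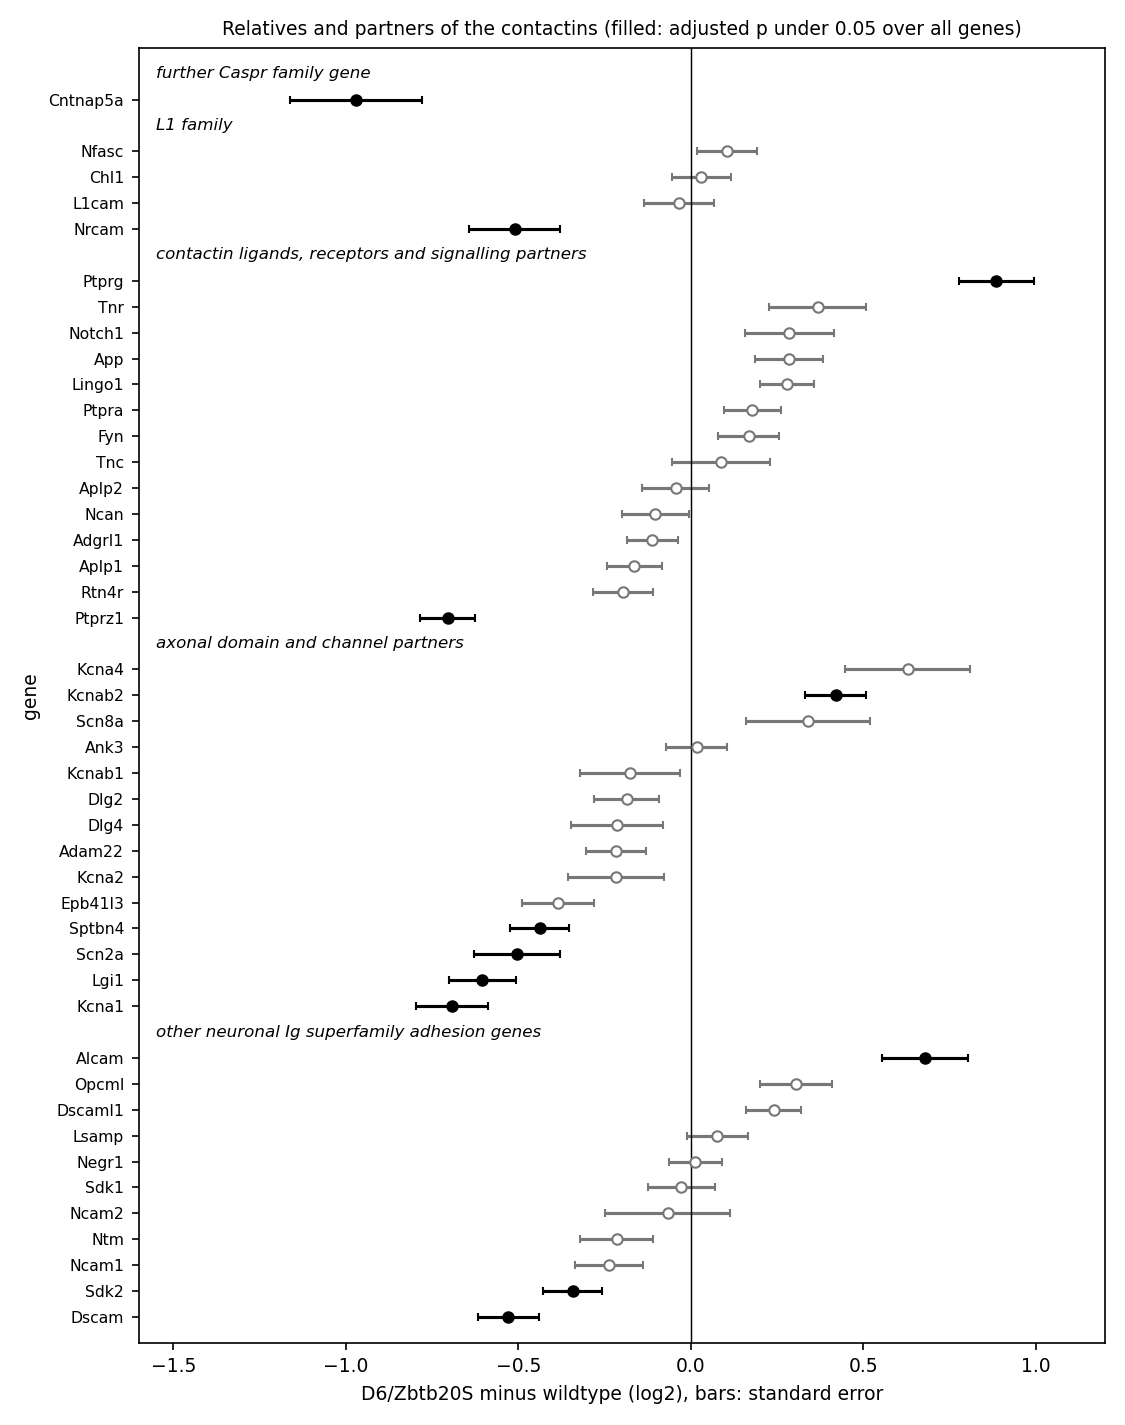
Log2 difference, D6/Zbtb20S minus wildtype (horizontal axis), of 44 genes related to or working with the contactins, grouped by list, with standard errors; filled points passed an adjusted p under 0.05 over all genes. Cntnap5a (-0.97), Ptprz1 (-0.70) and Kcna1 (-0.69) are the lowest points and Ptprg (0.89) the highest.

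Markers of other cell types moved in the same comparison, where each gene is again represented by its brightest probe set. The sums of linear signal given below weigh the brightest probe sets of a list most, so they do not measure a shift of the whole list. In the oligodendrocyte lineage, whose cells wrap the axonal domains that Cntn1, Cntn2 and Cntnap2 organise, 4 of 11 genes were lower and 0 higher (median -0.29), led by Olig2 (-0.77) and Olig1 (-0.68). Its summed linear signal ran from 1026 to 1212 on wildtype and from 741 to 827 on transgenic arrays, with Mog, Mag and Cldn11 under the array median on all arrays. Of 12 microglial genes 4 were higher and 0 lower (median 0.40), with sums of 612 to 655 and 787 to 919, and Itgam was under the array median throughout. Of 6 pan-neuronal genes 2 were lower, Nefl (-1.67) and Snap25 (-1.03), with sums of 5773 to 6271 and 4671 to 4930. In cortical glutamatergic neurons 2 of 5 were higher, Neurod2 (1.12) and Bcl11b (0.99), with sums of 1882 to 2101 and 2539 to 3128. None of 8 radial glial and astrocytic genes passed in limma on its brightest probe set, and 1 had an unadjusted p under 0.05. Of the 3 Aqp4 probe sets 1 was higher with the adjustment over all probe sets. Gfap (0.56) and Aqp4 (0.37) differed most, with list sums of 5139 to 5648 and 5528 to 5693. Of 8 endothelial genes 1 was lower, Slc2a1 (-0.36), with sums of 481 to 535 and 424 to 509 and Pecam1 under the array median throughout. Their part in the members' differences was not tested.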

How the data were processed

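Per the submitters' processing notes, which name RMA and limma, the authors deposited RMA summaries, taken as log2 values, 1 for each probe set on each array. Versions and order of steps are not given in the sources used here. The log2 scale was judged from the range of the values. Of 45101 probe sets 64 array controls were left out. The platform annotation gave 1 symbol for 34945 probe sets, several for 932 and none for 9160, and all 9 member genes were found by gene ID in RefSeq's GRCm38.p6 table. Groups came from the genotypes in the labels.

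Group differences came from lmFit and eBayes of limma 3.58.1 (R 4.3.3), with no covariates and with Benjamini-Hochberg adjustment over 45037 probe sets, or over 18193 genes represented by the probe set of highest mean. The code was tested on data made with known changes. Nothing says that the 3 pools of a genotype were of different litters; p-values then cover only the spread among pools, and the number of arrays limits precision. The scaling last applied by the authors is unknown. Signals of different probe sets are not comparable as levels, and a sum of linear signals over a list mostly follows its brightest probe sets.

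The members and gene lists were chosen with earlier results of these data known, and the subiculum and retrosplenial genes are ones already seen to fall. Named genes were all members, measured Caspr and L1 genes, up to 4 passing genes of largest difference per partner list (or the 2 of smallest p where none passed), up to 2 of largest difference per marker list, Zbtb20, and the 5 nearest profiles. Outside this rule, chosen after their values were seen, are Kcnab2, Fyn and the marker genes named for lying under the array median on all arrays. Alternatives were the removal of single arrays, the replicate number as a block, thresholds of 0.01 and 0.1, an ordinary linear model, probe set means, array weights, quantile normalization, equal medians, a variance trend with intensity, and removal of probe sets that exceeded the median on fewer than 3 arrays. Plots used matplotlib 3.10.9 (Python 3.11.15).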

Additional observations from a re-analysis of the deposited data

How the results depend on the processing

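Of the 18 member probe sets 6 passed with a replicate block, where 3304 of all probe sets, 1343 of all genes and 13 partner genes did. The labels' replicate numbers are not known to pair the pools, and the deviations of same-numbered arrays correlated at -0.22, 0.18 and -0.01. Leaving out 1 array gave 1162 to 2881 probe sets in place of 2484, 777 to 1538 genes in place of 1402 and 6 to 14 partner genes in place of 12. Array weights gave 4710 probe sets, 2707 genes and 20 partner genes. A threshold of 0.01 gave 1062 probe sets, 693 genes and 6 partner genes. It kept 4 member probe sets, without Cntn1 on 1452981_at and Cntn2 on 1435166_at. The ordinary linear model gave 200, 267 and 1, and 3 member probe sets. Equal medians, quantile normalization, an intensity trend and removal of dim probe sets kept the same 6 member probe sets, as did array weights. Calls that were higher made up 61.7% of probe set calls, 60.0% and 59.2% with equal medians and quantile normalization, and 43.5% in the ordinary linear model (87 higher, 113 lower). With 1 array left out the share ran from 53.2% (without D6/Zbtb20S replicate 3) to 68.7% (without wildtype replicate 3). Cntn1 on 1449563_at ran from -0.19 to 0.35 with 1 array left out and was at -0.0020 with array weights. Cntn2 on 1456962_at ran from -0.013 to 0.12 and was at -0.0049. Neither had passed. The cause of these changes was not tested. Probe sets under the array median limit what can be said of Cntnap1 and of the dim probe sets of Cntn1, Cntn3, Cntn4 and Cntnap2.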
